A study of Mus musculus with 8 samples.

Results

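The 30 genes described here, which mark B cells and lymphoid follicles, were followed in whole colon after stromal activation of Hedgehog (Hh) signalling. They were chosen by name, as a list of B cell receptor, signalling, transcription factor, homing and survival genes. Earlier results of these same data were known when they were chosen. Of the 30 genes, 29 were measured by a transcript cluster (a set of probes summarised to 1 value) that carries no other gene name, out of 22180 such genes on the array. The remaining one, Cd72, shares its cluster with another gene and was left out. RNA came from a 1 cm piece of colon beginning 1.5 cm from the anus, taken 7 days after intraperitoneal tamoxifen at 5 mg per 25 g of mouse, which all 8 mice received, and was hybridised to Affymetrix Mouse Gene ST 2.0 arrays, 1 per mouse. The 4 Ptch1ΔCol1 mice carried Col1a2CreER and Ptch1fl/fl, and replicates 1 and 2 also carried R26-LSL-tdTomato. Of the 4 controls, replicates 1 and 2 were Ptch1fl/+ and replicates 3 and 4 were R26-tdTomato, with no Cre in their labels. Replicate 3 of the Ptch1ΔCol1 mice and replicate 2 of the controls were males and the other 6 mice were females, and ages are not in the labels. Ptch1 encodes the receptor that holds Hh signalling off, and here it was deleted in cells that use the Col1a2 promoter, which are stromal cells of many organs. No control carried Cre, so an effect of Cre and one of Ptch1 loss cannot be told apart.

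B cells recognise antigen through surface antibody joined to the signalling chains CD79A and CD79B. In the colon they gather in colonic patches and solitary lymphoid follicles, where CXCR5 guides them towards the chemokine CXCL13 made by follicle stroma. Pax5, Ebf1 and Spib belong to the transcription factors that set the B cell programme, BAFF receptor (Tnfrsf13c) keeps mature B cells alive, and lymphotoxin from lymphocytes (Ltb) maintains the stroma of the follicle. Once B cells become plasma cells they lose most of these genes and make secreted antibody. A whole piece of colon holds all of these cells together with epithelium and muscle, so fewer B cells and less RNA per B cell cannot be told apart in the values below.

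The arrays had medians from 4.69 to 4.80 on the log2 scale, and Ptch1ΔCol1 replicate 3 correlated least with the other arrays (mean Pearson r of 0.979, and from 0.985 to 0.987 for the others). Gli1, the reporter of Hh activity, was at 6.36 to 6.42 in the Ptch1ΔCol1 mice and 4.81 to 5.20 in the controls (log2 fold change 1.36, limma SE 0.10, adjusted p = 0.00203 over all genes, where SE is the standard error of the fit by limma, a linear model across genes). Hhip, another Hh target, was at 9.05 to 10.17 and 7.53 to 7.88 (adjusted p = 0.0431 from limma). Ptch1 itself, which Hh signalling induces, was at 9.19 to 9.63 in the Ptch1ΔCol1 mice and 8.48 to 8.77 in the controls (adjusted p = 0.139 from limma). The floxed allele still yields Ptch1 mRNA, which encodes a shortened protein, so this level is no check of the deletion. The Gli1 level of all 8 mice fits their labels.

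The B cell genes were at lower values in Ptch1ΔCol1 mice for 27 of the 29 members (52.9% of all genes were lower), but no member passed the test, and the mean of the members overlapped between the groups. The mean of the 29 members was 5.77, 5.50, 4.94 and 5.94 in Ptch1ΔCol1 replicates 1 to 4 and 6.12, 6.64, 5.54 and 6.29 in control replicates 1 to 4 (log2 units). Control replicate 3 thus lay among the Ptch1ΔCol1 mice, below their replicates 1 and 4, while the other 3 controls lay above every Ptch1ΔCol1 mouse. The group means were 5.54 ± 0.44 and 6.15 ± 0.46 (SD, n = 4), a difference of -0.61, which is 0.654 of the control level on the linear scale. The difference was larger than the pooled SD within groups of 0.45, and the lowest and highest mouse were 1.00 apart among the Ptch1ΔCol1 mice and 1.09 apart among the controls. The median log2 fold change of the members was -0.65, beside -0.01 over all 22180 genes, and 17 of the 29 members lay below -0.5, as did 0.839% of all genes. The mean and the median are descriptions and carry no test. The counts of members beside all genes are descriptions too, since the list was chosen with earlier results of these data known.

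**Figure D1:**
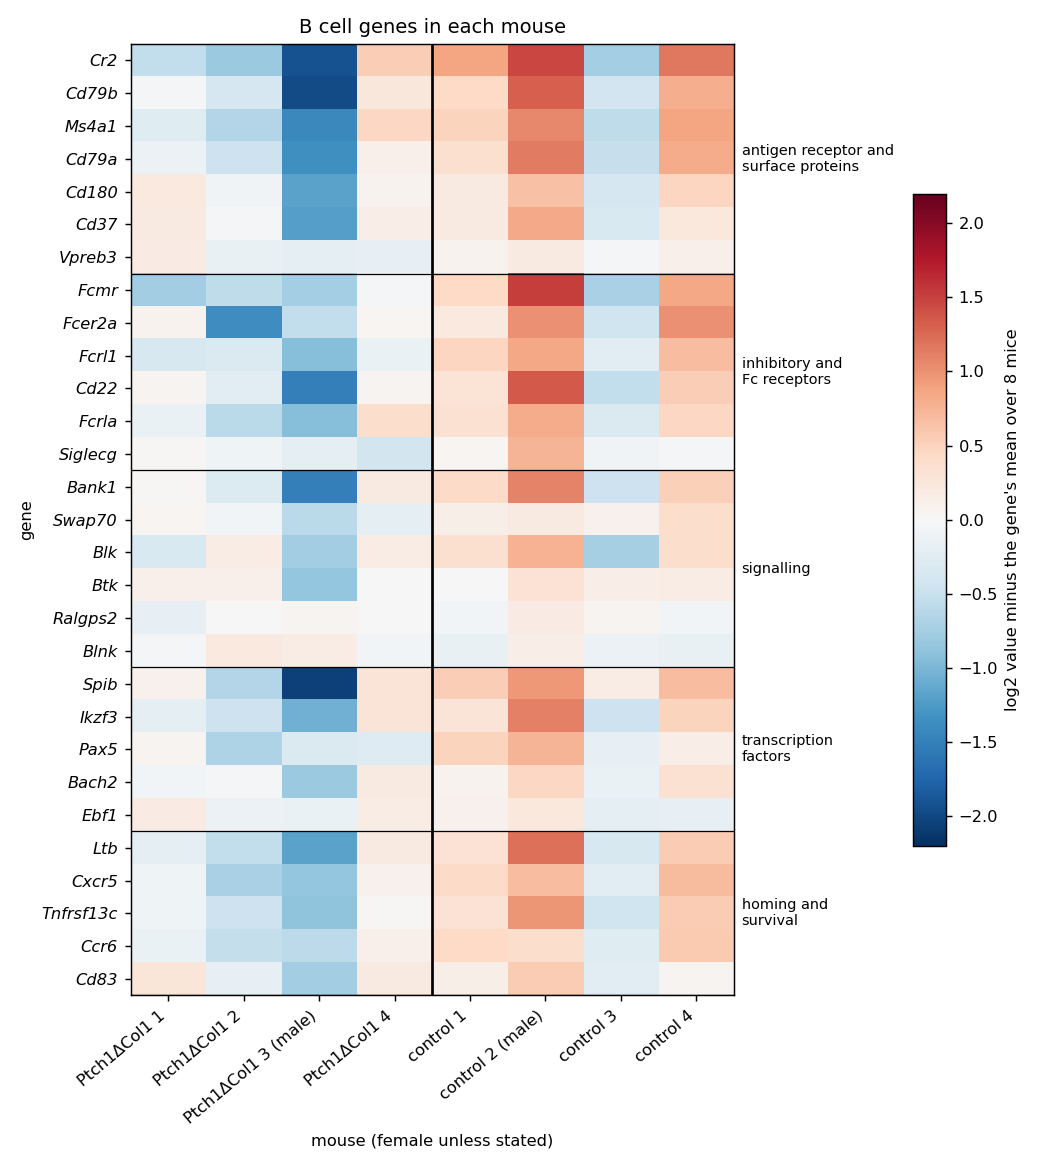
Heat map of the 29 measured B cell genes (rows, grouped by role) in the 8 mice (columns). Colour is the log2 value minus that gene's mean over the 8 mice. Most rows are darkest red in control replicate 2 and darkest blue in Ptch1ΔCol1 replicate 3, and control replicate 3 is blue in most rows.

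At an adjusted p under 0.05 from limma 0 of the 29 members passed, where 0.0271% of all genes did (6 of 22180; 0.00902% lower and 0.018% higher), and the adjusted p of the members ranged from 0.405 to 0.960. At an unadjusted p under 0.05, 12 members were lower and 0 higher, beside 4.91% and 4.31% of all genes. Only for Swap70 did the groups not overlap, which is 1 of 29 members, beside 2.9% of all genes lower and 2.47% higher without overlap. Without control replicate 3, 17 members had all 4 Ptch1ΔCol1 mice below the 3 other controls, as did 4.32% of all genes. That control was the lowest for 26 members, so leaving it out can only raise this count for them.

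**Figure D2:**
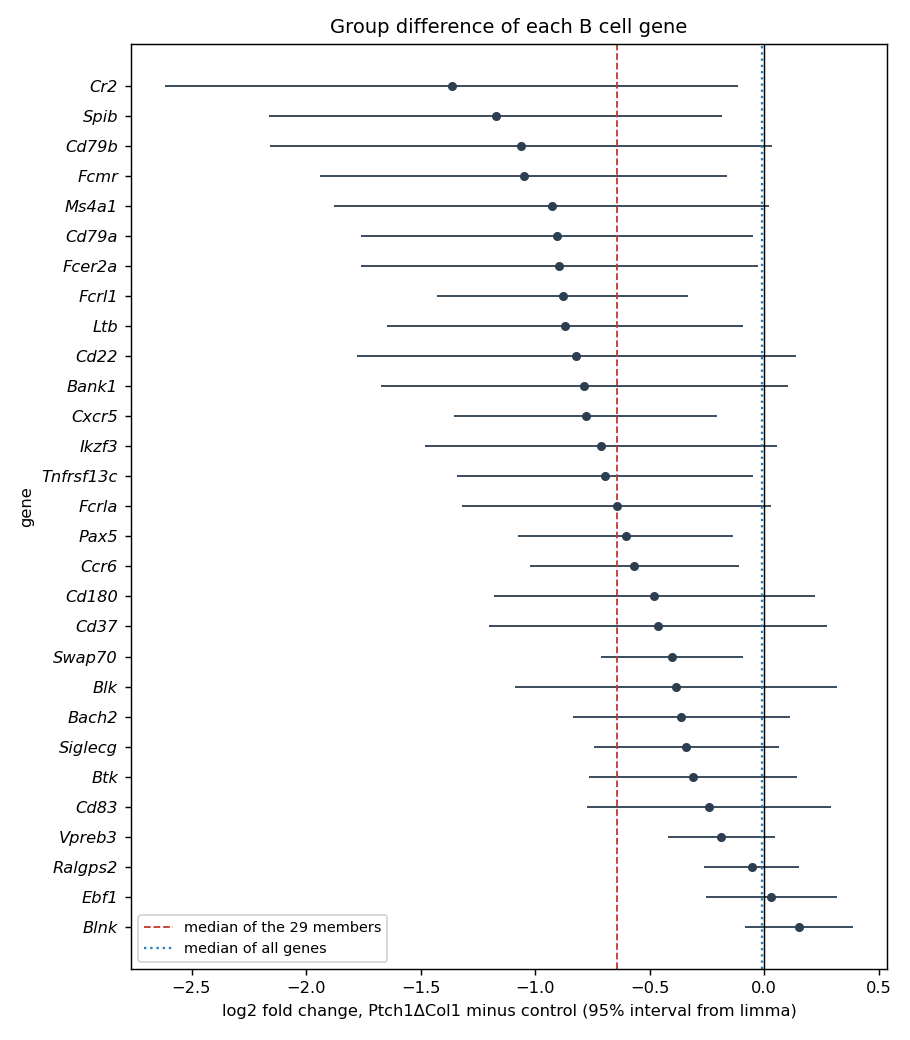
Log2 fold change of each member (points, Ptch1ΔCol1 minus control) with its 95% interval from limma (bars), not adjusted for the number of genes. The dashed line is the median of the members (-0.65) and the dotted line that of all genes (-0.01); Cr2 is lowest at -1.37 and Blnk highest at 0.15.

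Cd79a and Cd79b encode the signalling chains of the antigen receptor. Cd79a was at 6.63, 6.30, 5.41 and 6.86 in Ptch1ΔCol1 replicates 1 to 4 and at 7.10, 7.90, 6.25 and 7.57 in control replicates 1 to 4 (log2 units). Only Ptch1ΔCol1 replicate 3 was below the lowest control, and the log2 fold change was -0.91 (limma SE 0.38, 95% interval -1.76 to -0.05, adjusted p = 0.530). For Cd79b, its partner chain, the Ptch1ΔCol1 mice were at 7.16, 6.81, 5.21 and 7.43 and the controls at 7.62, 8.50, 6.76 and 7.98. The pattern over mice was that of Cd79a, with a wider range of 3.29 between the highest and lowest mouse and a log2 fold change of -1.06 (limma SE 0.49, adjusted p = 0.555).

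Ms4a1, which encodes the B cell surface protein CD20, was at 5.27, 4.90, 4.12 and 6.0 in the Ptch1ΔCol1 mice and 6.03, 6.60, 4.97 and 6.40 in the controls. The log2 fold change was -0.93 (limma SE 0.42, adjusted p = 0.553), and control replicate 3 again lay below replicates 1 and 4 of the Ptch1ΔCol1 mice. Cr2 encodes complement receptor CD21, carried by mature B cells and by follicular dendritic cells. It was at 4.45, 4.18, 3.08 and 5.54 in the Ptch1ΔCol1 mice and 5.86, 6.46, 4.24 and 6.15 in the controls. Its log2 fold change of -1.37 (limma SE 0.56, 95% interval -2.62 to -0.12, adjusted p = 0.519) was the lowest of the members, and its 8 mice spanned 3.38 log2 units, more than for any other member. Cd37, a tetraspanin of leukocytes, and Cd180, a Toll-like receptor relative on B cells, had log2 fold changes of -0.47 and -0.48, with Ptch1ΔCol1 replicate 3 alone below the controls in both. Vpreb3, a protein of the B lineage that binds nascent antibody chains, was at 4.31, 3.96, 3.93 and 3.95 in the Ptch1ΔCol1 mice and 4.21, 4.33, 4.11 and 4.25 in the controls. Replicate 1 of the Ptch1ΔCol1 mice stood apart from the other 3, which were below all controls (log2 fold change -0.19, limma SE 0.10).

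Among the inhibitory and Fc receptors, Fcrl1, a B cell receptor of the Fc receptor-like family, had the smallest p of all members. It was at 4.35, 4.39, 3.76 and 4.56 in the Ptch1ΔCol1 mice and 5.18, 5.56, 4.45 and 5.39 in the controls. Only Ptch1ΔCol1 replicate 4 reached above control replicate 3, and the log2 fold change was -0.88 (limma SE 0.25, 95% interval -1.43 to -0.33, adjusted p = 0.405; exact two-sided permutation over mice, p = 0.0571). Fcmr, the Fc receptor for IgM, was at 5.30, 5.51, 5.32 and 6.04 in the Ptch1ΔCol1 mice and 6.50, 7.59, 5.36 and 6.92 in the controls, a log2 fold change of -1.05 (limma SE 0.40, adjusted p = 0.499). Here the Ptch1ΔCol1 mice were close together (SD 0.34), and the controls spread more widely (SD 0.94). Fcer2a, which encodes the IgE receptor CD23, had a log2 fold change of -0.90 (limma SE 0.39) and its lowest value in Ptch1ΔCol1 replicate 2, at 3.80. Cd22, an inhibitory lectin that recognises sialic acid, and Fcrla, an intracellular relative of the Fc receptors, had log2 fold changes of -0.82 and -0.65 (SEs 0.43 and 0.30). Siglecg, another inhibitory sialic acid lectin, was at 4.17, 4.04, 3.94 and 3.73 in the Ptch1ΔCol1 mice and 4.18, 4.88, 4.06 and 4.12 in the controls, so that control replicate 2 was alone above the other 7 mice (log2 fold change -0.34, limma SE 0.18).

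The signalling members differed among themselves. Swap70, which encodes a signalling protein first known from B cells and also present in other cells, was at 7.15, 7.05, 6.52 and 6.91 in the Ptch1ΔCol1 mice and 7.24, 7.30, 7.20 and 7.50 in the controls. All 4 Ptch1ΔCol1 mice lay below all 4 controls (exact permutation test, two-sided, p = 0.0286, which is the lowest possible here), but the nearest mice were at 7.15 and 7.20 and the log2 fold change of -0.40 did not pass over all genes (limma SE 0.14, adjusted p = 0.460). Bank1, a B cell scaffold protein, had a log2 fold change of -0.79 (limma SE 0.40) and Blk, a kinase of the Src family, one of -0.39 (limma SE 0.31). Btk, the kinase missing in X-linked agammaglobulinaemia in humans, was at 5.42, 5.41, 4.45 and 5.31 in the Ptch1ΔCol1 mice and 5.30, 5.63, 5.45 and 5.46 in the controls. All but Ptch1ΔCol1 replicate 3 lay between 5.30 and 5.63 (log2 fold change -0.31, limma SE 0.20). Blnk, the adaptor that links the receptor to its downstream enzymes, was at 9.95, 10.19, 10.14 and 9.91 in the Ptch1ΔCol1 mice and 9.81, 10.12, 9.85 and 9.80 in the controls, a log2 fold change of 0.15 (limma SE 0.10, 95% interval -0.08 to 0.39). Ralgps2, an exchange factor for Ral GTPases, was at -0.06 (log2 fold change, limma SE 0.09), with all 8 mice within 0.37.

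Of the transcription factors, Pax5, which commits cells to the B lineage, was at 4.61, 3.87, 4.23 and 4.26 in the Ptch1ΔCol1 mice and 5.03, 5.30, 4.37 and 4.69 in the controls. Only Ptch1ΔCol1 replicate 1 overlapped with the controls, with a log2 fold change of -0.61 (limma SE 0.21, 95% interval -1.07 to -0.14, adjusted p = 0.462; exact permutation test, p = 0.0571). Spib, an ETS factor of B cells that M cells and plasmacytoid dendritic cells also use, was at 5.76, 5.02, 3.61 and 5.95 in the Ptch1ΔCol1 mice and 6.21, 6.63, 5.84 and 6.35 in the controls. The log2 fold change was -1.17 (limma SE 0.44, adjusted p = 0.498). Without Ptch1ΔCol1 replicate 3, which is far below the others, it was -0.68. Ikzf3, a zinc finger factor of lymphocytes, had a log2 fold change of -0.71 (limma SE 0.34) and Bach2, which holds back plasma cell formation, one of -0.36 (limma SE 0.21). Ebf1, a B cell factor that fat and stromal cells also express, was at 0.03 (log2 fold change, limma SE 0.13) and ranged over 0.43 log2 units. Pax5, Spib, Fcrl1, Fcmr and Ccr6 stand on the study's list of genes most reduced in these same mice, and their direction here is no independent evidence.

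Cxcr5, the receptor that brings B cells into follicles, was at 5.12, 4.51, 4.36 and 5.32 in the Ptch1ΔCol1 mice and 5.64, 5.89, 4.99 and 5.91 in the controls. Its log2 fold change of -0.78 (limma SE 0.26, 95% interval -1.36 to -0.20, adjusted p = 0.449) left control replicate 3 below Ptch1ΔCol1 replicates 1 and 4. Ccr6, a receptor for the chemokine CCL20 made by the epithelium over follicles, had a log2 fold change of -0.57 (limma SE 0.20, adjusted p = 0.480). Tnfrsf13c and Ltb were at -0.70 and -0.87 (SEs 0.29 and 0.35), and Cd83, which activated B cells share with dendritic cells, was at -0.24 (limma SE 0.24).

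**Figure D3:**
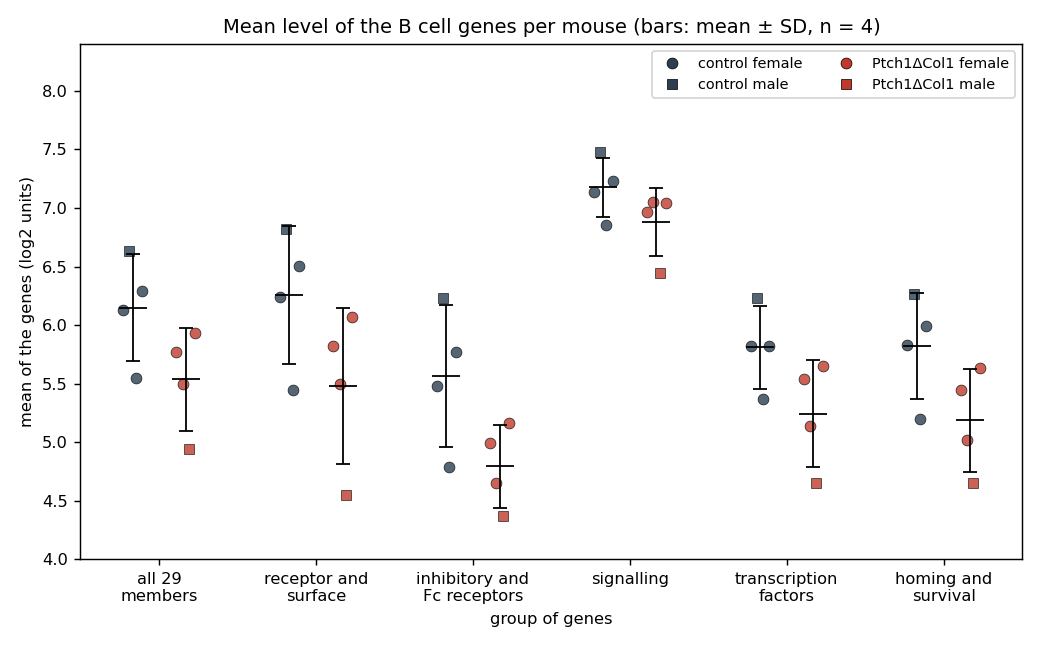
Mean log2 value of all 29 members and of each role group in every mouse (points, squares for males), with group means and SDs (bars, n = 4). In every column the Ptch1ΔCol1 male is the lowest mouse and the control male the highest, and the other mice of both groups overlap.

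Most members had the same mice at the extremes. Among the controls, replicate 2 was highest for 25 members and replicate 3 lowest for 26. Among the Ptch1ΔCol1 mice replicate 3 was lowest for 23, but replicate 4 was highest for only 16. Over all 8 mice, control replicate 2 was highest for 24 members, as it was for 11.1% of all genes, and Ptch1ΔCol1 replicate 3 was lowest for 22, as it was for 17.3% of all genes. To leave out the group difference, each gene was taken as its deviation from the group mean and correlated over the 8 mice with the mean of the other members. The median Pearson r was 0.93, and r was over 0.8 for 20 of 29 members, where 1.84% of all genes had an r over 0.8 with the mean of the members. These correlations are descriptive, over 8 arrays that were normalized together. Cd79a followed the others most closely (r = 0.993), and Bank1, Tnfrsf13c, Ltb and Ikzf3 were at 0.983 to 0.987. Blnk (-0.05) and Ralgps2 (-0.13) did not follow, and Siglecg, Vpreb3, Pax5, Swap70, Btk, Fcer2a and Ebf1 lay between 0.44 and 0.76. Without Ptch1ΔCol1 replicate 3 the median r was 0.93 and 21 members were over 0.8, but r for Swap70 and Btk, 0.64 and 0.67 with it, was 0.26 and 0.34.

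**Figure D4:**
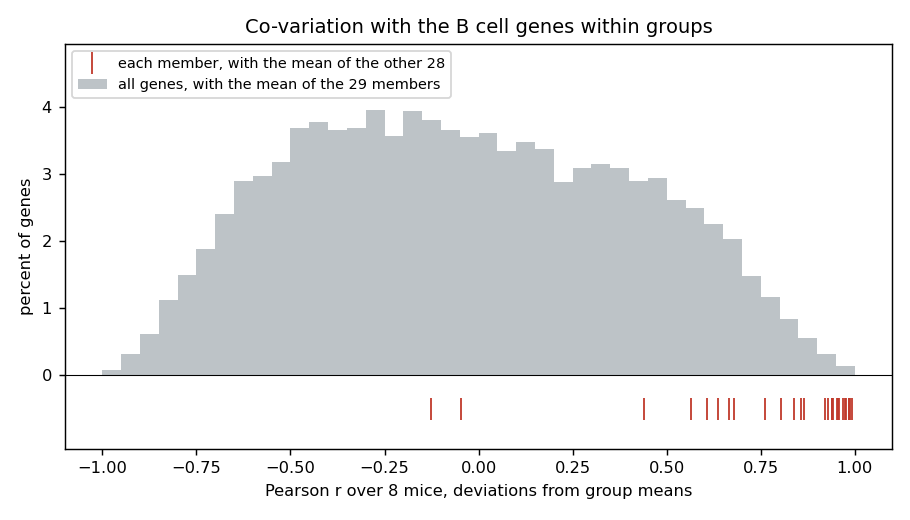
Pearson r over the 8 mice, on deviations from the group means. Grey bars give the percent of all genes by their r with the mean of the 29 members, and red ticks give each member's r with the mean of the other members; 20 ticks lie above 0.8, and Blnk and Ralgps2 lie just below 0.

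The highest and the lowest of the 8 mice by the mean of the members were males, and the size of the group difference depended on them. In the females alone (3 against 3) the mean of the members was 5.74 in Ptch1ΔCol1 mice and 5.99 in controls, a difference of -0.25 in place of -0.61, and 25 of 29 members were lower with a median log2 fold change of -0.27, beside -0.017 over all genes. Without the Ptch1ΔCol1 male alone the difference of the mean was -0.41, and without the control male alone -0.45. Between the 2 males the difference was -1.70, and 28 members were lower, as were 46.1% of all genes. In a fit with an interaction of group and sex, none of the members passed over all genes (lowest adjusted p = 0.0850 from limma, 8 genes passing), and 19 had an unadjusted p under 0.05, beside 12.3% of all genes. The fit was added because the males had been seen to be the extremes, so it restates these values and is no test of them. With 1 male per group, sex and the single mouse cannot be told apart. The kinds of control, with 2 mice each, also differed, with a mean of the members of 6.38 in the Ptch1fl/+ controls and 5.92 in the R26-tdTomato controls. The Ptch1fl/+ mean holds the control male (6.64), and the Ptch1fl/+ female (6.12) lay between the R26-tdTomato controls (5.54 and 6.29). The kind of control and this male cannot be told apart.

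Genes next to the members in B cell biology lay in the same direction with smaller medians. Of 19 measured genes of B cell receptor signalling outside the list, 17 were lower and 2 higher, none passed, and the median log2 fold change was -0.11. Plcg2, the phospholipase downstream of Btk, had the smallest p of these, with a log2 fold change of -0.33 (limma SE 0.13, adjusted p = 0.516). Of 24 other B cell genes 21 were lower and 3 higher, with a median of -0.20 and none past the test. The mean of this list differed by -0.23 between the groups over all mice and by -0.02 in the females alone. For the mean of the receptor signalling genes these differences were -0.12 and -0.07. Hvcn1, a proton channel of B cells, was at 6.34, 6.13, 5.74 and 6.40 in the Ptch1ΔCol1 mice and 6.58, 6.94, 6.55 and 6.76 in the controls (log2 fold change -0.56, limma SE 0.15, adjusted p = 0.397), without overlap. Gpr174, a lymphocyte receptor, was at 3.16 to 3.48 and 3.54 to 4.32, also without overlap (log2 fold change -0.56, adjusted p = 0.405). Both stand on the study's list from these mice, as do Rgs13, Il21r, Cxcl12 and Gp2 below.

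Germinal centre genes did not share this direction as a group, with 3 of 10 lower and 7 higher, a median of 0.12 and none past the test. Rgs13, a regulator of G protein signalling in germinal centre B cells that tuft cells also express, was at -0.85 (log2 fold change, limma SE 0.32), and Il21r, the receptor for interleukin 21, at -0.60 (limma SE 0.20), with adjusted p of 0.497 and 0.452 from limma. Next by p in this list were Mybl1 and Fas, which were higher, at 0.305 and 0.21 (limma SEs 0.15 and 0.12). Of 9 plasma cell genes 4 were lower and 5 higher (median 0.02), and none passed. The mean of the plasma cell list ranged from 6.55 to 7.11 in Ptch1ΔCol1 mice and 6.57 to 7.13 in controls.

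The follicle's own stroma and vessels were mixed. Of 18 measured genes 11 were lower and 7 higher, with a median of -0.03 and none past the test. Cxcl12, a chemokine of stromal cells, was at 8.65, 8.11, 7.68 and 8.46 in the Ptch1ΔCol1 mice and 9.14, 8.74, 8.81 and 8.67 in the controls, without overlap (log2 fold change -0.62, limma SE 0.20, adjusted p = 0.448). Glycam1, a mucin-like ligand on the high endothelial venules through which lymphocytes enter, was at 4.45, 4.69, 4.48 and 6.06 against 6.36, 6.82, 4.33 and 6.93. As with the B cell genes, control replicate 3 was low and Ptch1ΔCol1 replicate 4 high, and the log2 fold change of -1.19 had an SE of 0.57 (adjusted p = 0.568). Madcam1, the vascular ligand for gut-homing lymphocytes, was at -0.27 (limma SE 0.16). Nfkb2, from the same list, was higher, with a log2 fold change of 0.17 (limma SE 0.11). Gp2, a marker of M cells in the epithelium over follicles, had a log2 fold change of -0.50 (limma SE 0.16, adjusted p = 0.445), and 9 of 12 M cell genes were lower with a median of -0.09 and none past the test. Next by p in the M cell list were Pglyrp1 at 0.18, Tnfrsf11a at -0.13 and Marcksl1 at 0.13.

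Lists of other cell types followed the members in part. All 7 genes shared by leukocytes were lower (median -0.46, none past the test), and their mean was 5.82 in Ptch1ΔCol1 replicate 3, 6.90 to 7.21 in the other Ptch1ΔCol1 mice and 6.88 to 7.56 in the controls. In the females this mean differed by -0.02 between the groups. Of 16 T cell genes 15 were lower (median -0.25, none past the test), with a mean of 4.38 to 4.77 in Ptch1ΔCol1 mice and 4.60 to 5.23 in controls. Cd3g, a chain of the T cell receptor complex, had a log2 fold change of -0.81 (limma SE 0.37) and followed the members within groups (r = 0.965). Bcl11b had the smallest p of this list, with a log2 fold change of -0.415 (limma SE 0.13, adjusted p = 0.448), but did not follow them (r = -0.436). On deviations from the group means, the mean of the members correlated over the 8 mice with that of the T cell list (r = 0.910) and the leukocyte list (r = 0.873). It correlated less with the macrophage list (r = 0.376, and -0.36 without Ptch1ΔCol1 replicate 3). The r was 0.885 for the follicle stroma list, 0.836 for germinal centre, 0.804 for innate lymphoid, 0.754 for dendritic cell and 0.506 for plasma cell genes. Without Ptch1ΔCol1 replicate 3 these were 0.803, 0.717, 0.827, 0.597 and 0.251, with 0.917 for T cells and 0.888 for leukocytes. For M cell genes r was 0.558, and -0.051 without that mouse. For fibroblast genes it was 0.450, and 0.036 without that mouse. Macrophage genes had a median of -0.03, with 8 of 13 lower, and epithelial genes one of 0.03, with 3 of 10 lower, and none of either list passed. All 10 smooth muscle genes were higher (median 0.14, none past the test), with a mean of 10.69 to 10.90 in Ptch1ΔCol1 mice and 10.48 to 10.67 in controls. The part of leukocyte content and of tissue make-up in the values of the B cell genes was not tested.

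**Figure D5:**
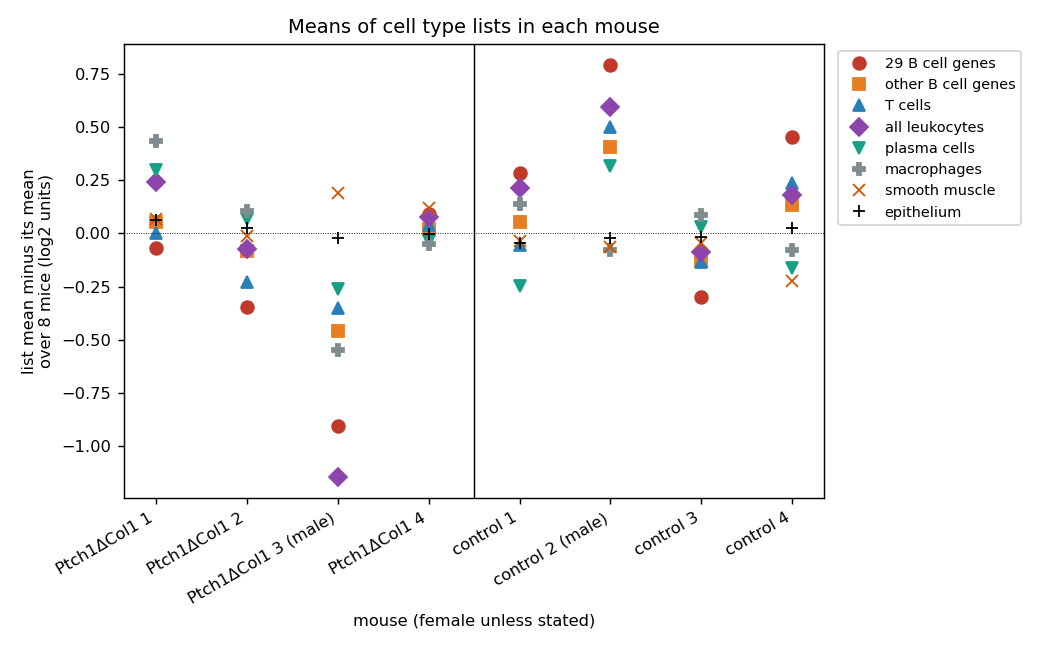
Mean of the 29 B cell genes and of 7 cell type lists in each mouse, minus the list's mean over the 8 mice (log2 units). The means of both B cell lists and of the T cell, leukocyte, plasma cell and macrophage lists are lowest in Ptch1ΔCol1 replicate 3. All of these but the macrophage mean are highest in control replicate 2, while the epithelial mean stays between 11.18 and 11.28.

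Since the members varied together, the 250 bases before the start of each gene were searched for 4 motifs known from B cell genes, on both strands: the octamer ATGCAAAT, an ETS site AGGAAGT, an EBF1 site (TCCC and GGGA with any 2 bases between) and a kappa B site of NF-kB (the letters in capitals in the Ltb promoter). RefSeq promoters of build GRCm38.p6 matched 23 of the 29 members. The ETS letters were in 6 of the 23, beside 8.8% of 27025 genes with a promoter in the same table, the octamer in 3 (1.81%), the EBF1 letters in 1 (0.914%) and the NF-kB letters in 1 (0.159%). The 6 promoters below were chosen to show each motif at least once, with the motif in capitals, 5′ to 3′ on the gene's strand. They come from Cd79a, which followed the other members most closely, from Fcrl1, Cd22, Ccr6 and Ltb, and from Blnk, which did not follow them.
Cd79a (chr7:24897247-24897496, + strand): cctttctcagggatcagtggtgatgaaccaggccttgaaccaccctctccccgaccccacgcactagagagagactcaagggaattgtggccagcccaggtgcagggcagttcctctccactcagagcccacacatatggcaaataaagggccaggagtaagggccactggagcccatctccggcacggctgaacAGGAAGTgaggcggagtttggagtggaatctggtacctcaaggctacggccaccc
Fcrl1 (chr3:87376137-87376386, + strand): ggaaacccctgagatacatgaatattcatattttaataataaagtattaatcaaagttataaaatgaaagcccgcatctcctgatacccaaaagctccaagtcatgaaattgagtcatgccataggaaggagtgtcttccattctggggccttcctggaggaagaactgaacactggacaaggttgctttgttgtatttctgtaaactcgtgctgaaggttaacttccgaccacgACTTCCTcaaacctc
Cd22 (chr7:30879029-30879278, - strand): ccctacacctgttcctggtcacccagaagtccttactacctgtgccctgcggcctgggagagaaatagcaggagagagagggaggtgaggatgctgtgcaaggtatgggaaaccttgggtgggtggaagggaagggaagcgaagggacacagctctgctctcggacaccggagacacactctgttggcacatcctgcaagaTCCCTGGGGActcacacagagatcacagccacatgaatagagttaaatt
Ccr6 (chr17:8235793-8236042, + strand): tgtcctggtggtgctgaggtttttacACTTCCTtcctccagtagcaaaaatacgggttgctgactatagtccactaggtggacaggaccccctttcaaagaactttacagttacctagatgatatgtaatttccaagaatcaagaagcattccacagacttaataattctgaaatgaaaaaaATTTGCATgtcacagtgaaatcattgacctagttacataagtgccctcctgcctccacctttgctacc
Ltb (chr17:35194257-35194506, + strand): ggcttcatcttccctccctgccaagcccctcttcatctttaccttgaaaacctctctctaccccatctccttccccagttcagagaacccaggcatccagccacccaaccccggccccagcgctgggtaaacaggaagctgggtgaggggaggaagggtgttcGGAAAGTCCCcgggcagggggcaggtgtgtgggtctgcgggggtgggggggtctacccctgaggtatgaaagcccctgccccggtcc
Blnk (chr19:40994222-40994471, - strand): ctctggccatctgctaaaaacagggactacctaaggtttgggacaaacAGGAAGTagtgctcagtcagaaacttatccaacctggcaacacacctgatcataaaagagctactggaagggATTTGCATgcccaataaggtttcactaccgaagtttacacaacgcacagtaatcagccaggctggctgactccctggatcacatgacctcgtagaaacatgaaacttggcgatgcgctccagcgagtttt
The ETS letters begin 55 bases before the start in Cd79a and 15 in Fcrl1, and Ccr6, Blnk and Vpreb3 hold both the ETS letters and the octamer, with no overlap of matches. Their r with the other members was 0.837, -0.05 and 0.565. Ccr6 has another listed start, and the bases before it (chr17:8242276-8242525) hold none of the 4 motifs. A match of letters is a description of the sequence and not of binding.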

How the data were processed

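The deposited values are log2 intensities that the authors obtained by robust multi-array averaging (RMA, with median polish), 1 per transcript cluster. Its software and version were not given in the sources used. Of 41345 clusters, 23521 carry 1 gene symbol in the probe table, and 23328 of these took their current symbol from RefSeq (GRCm38.p6) by gene ID. For the 1082 genes with several clusters the brightest was kept, which left 22180 genes; every measured member has 1 cluster. The groups were compared over all genes with limma 3.58.1 in R 4.3.3 (lmFit, eBayes, Benjamini-Hochberg, threshold 0.05), on all 8 arrays without covariates. In a simulation of this comparison over 22180 genes, limma found 85 of 100 genes that were shifted by 1 log2 unit. Among 100 shifted by 2 log2 units it found 97, and 10 calls were false. These counts were not split by how variable a gene was, so they give no recovery rate for the members. The simulation also held 200 shifted genes and noise that was independent between genes, whereas 6 genes passed in the data. The adjusted p depends on how many genes change, so recovery in the data can be lower. Limma SEs of the members reached 0.56 (Cr2). Cd79b, with a log2 fold change of -1.06 and an SE of 0.49, had an adjusted p of 0.555 from limma. For single genes, an exact permutation test (two-sided) used the 70 relabellings of mice. With 4 animals per group, precision is limited by their number.

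The members and gene lists were chosen with earlier results of these data known. Described with every mouse's value were members without overlap, the defining members (Cd79a, Cd79b, Ms4a1, Pax5, Cr2, Cxcr5), members with an outlying mouse and, chosen after their values were seen, Fcrl1, Fcmr and Spib; of other lists, up to 4 genes of smallest p could be named, with Gli1, Ptch1, Hhip and the 10 genes most correlated with the members.
The alternatives were other ways to join clusters, a filter on dim genes, quantile normalization, median centring, trended robust variances, array weights, a term for sex, reporter or replicate number, 1 kind of control at a time, only the females, and all mice but 1.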

Additional observations from a re-analysis of the deposited data

Results flagged for a closer look

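By Dixon's criterion, which chance alone meets in about 1 of 20 groups, 1 mouse lay apart from the other 3 in 4 of the 58 groups of the 29 members (6.9%), close to the 5.5% of groups over all genes. Btk was at 4.45 in Ptch1ΔCol1 replicate 3 and from 5.31 to 5.42 in the other Ptch1ΔCol1 mice. Vpreb3 was at 4.31 in Ptch1ΔCol1 replicate 1 and from 3.93 to 3.96 in the others. Control replicate 2 had a Siglecg value of 4.88, where the rest of the controls lay between 4.06 and 4.18. For Blnk it had 10.12, where they lay between 9.80 and 9.85. The mean of the 29 members had no such mouse in either group.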

How the results depend on the processing

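No member passed limma under any of the 21 alternatives, and the mean log2 fold change of the members was negative in all of them. It was -0.38 against the R26-tdTomato controls alone, -0.84 against the Ptch1fl/+ controls alone, -0.25 in females and -0.50 with array weights, and from -0.82 to -0.41 with 1 mouse left out. Members without overlap of the groups, 1 in the full comparison, numbered 18 against the Ptch1fl/+ controls alone, where 13.6% of all genes did not overlap, 4 (2 lower and 2 higher) against the R26-tdTomato controls alone (15.8%) and 2 (1 lower and 1 higher) in females (16.6%). With 1 mouse left out they numbered from 1 to 17 (17 without control replicate 3, where 7.78% of all genes did not overlap). The log2 fold change of Ebf1, 0.03 in the full comparison, was -0.15 against the Ptch1fl/+ controls alone and from -0.031 to 0.11 with 1 mouse left out (-0.022 and -0.019 without Ptch1ΔCol1 replicates 1 and 4, -0.031 and -0.028 without control replicates 3 and 4). In females Cd37 was at 0.067 and Cd83 at 0.12. The cause of these turns was not tested. With the replicate number as a block 0 members passed and the mean log2 fold change stayed at -0.61. In that fit 22 members in place of 12 were lower with an unadjusted p under 0.05, as were 4.56% of all genes. Same-numbered mice did not deviate together over all genes (r from -0.05 to 0.03). The mean of the members was nevertheless lowest in replicate 3 of both groups (4.94 in Ptch1ΔCol1 mice and 5.54 in controls). Whether the number stands for a pairing was not tested. Over all genes, the number that passed was 6, and from 0 to 12 under the alternatives. Of the 29 members 25 lay above the 40th percentile of gene means (4.67), and the deposited values hold no measure of background for the other 4 (Pax5, Blk, Siglecg and Vpreb3). Gpr174, at 3.16 to 4.32 in the 8 mice, also lay below that percentile.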

Other observations

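Outside all the lists, the 10 genes closest to the mean of the B cell genes over the 8 mice, on deviations from the group means, were Napsa, Rbp4, Wdfy4, Mndal, Btla, Map4k1, Gimap3, Artn, Mthfd2 and Tada2a, with r from 0.961 to 0.988. Btla, an inhibitory receptor of B and T cells, had a log2 fold change of -0.56 (limma SE 0.32, adjusted p = 0.619). Rbp4, which encodes the retinol carrier, followed the members within each group (r = 0.985) but lay higher in the Ptch1ΔCol1 mice, at 7.98 to 8.29 against 7.36 to 7.62 in the controls (log2 fold change 0.67, limma SE 0.10, adjusted p = 0.111). Rbp4 and Ccl17 stand on the study's list of genes most raised in these same mice, and their direction is no independent evidence. Artn and Mthfd2 were also higher, at 0.17 and 0.27.

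Dendritic cell genes were mixed, with 4 of 9 lower and 5 higher and none past the test. Ccl17, a chemokine of dendritic cells, was at 5.25, 6.15, 5.28 and 5.54 in the Ptch1ΔCol1 mice and 5.19, 4.84, 4.52 and 4.70 in the controls, without overlap (log2 fold change 0.74, limma SE 0.21, adjusted p = 0.405). Ly75 went the other way, with a log2 fold change of -0.30 (limma SE 0.10, adjusted p = 0.452). Cd209a, a lectin of dendritic cells, had a log2 fold change of 0.32 (limma SE 0.11, adjusted p = 0.468), and Ccl22 one of 0.47 (limma SE 0.25). Of the 6 measured genes of innate lymphoid cells 3 were lower and 3 higher, and Kit, which mast cells and pacemaker cells of the gut also express, was at -0.26 (limma SE 0.10, adjusted p = 0.498).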
